A study of Mus musculus with 2 samples.

Results

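The synaptic zinc transporter, its relatives and the metallothioneins are described here as 8 genes chosen by symbol out of 55536 annotated genes: Slc30a1, Slc30a3, Slc30a4, Slc30a9, Slc30a10, Mt1, Mt2 and Mt3. All 8 symbols were found in the gene and transcript tables. Total RNA was sequenced from hippocampal tissue of males of the hybrid strain B6CASTF1/J, aged 25 days. The 2 libraries form 1 group of biological replicates, each prepared from 300 ng of RNA plus the ERCC spike-in control RNAs, and no mouse was treated or compared with another condition. Both replicates carry the same donor identifier in the labels, so the spread between them may be technical. With 1 group of 2 samples no test between groups was possible, and every SD below has n = 2.

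Most Slc30 proteins (ZnT transporters) move zinc out of the cytosol, either across the plasma membrane or into vesicles and organelles, while Slc39 proteins (ZIP transporters) move it inward. ZnT3, the product of Slc30a3, loads zinc into glutamate-containing synaptic vesicles and is known for the zinc-rich mossy fibres of the hippocampus. Metallothioneins are short, cysteine-rich proteins that hold zinc and copper. Mt1 and Mt2 are induced by metals and stress through the factor MTF1 and are best known in astrocytes, and Mt3 is the form typical of brain.

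The metallothionein genes lie together on mouse chromosome 8 (mm10), all on the plus strand, in the order Mt4, Mt3, Mt2 and Mt1 over 43131 bases. Mt3 occupies chr8:94152607-94154146, Mt2 chr8:94172664-94173568 and Mt1 chr8:94179082-94180327. Mt3 and Mt2 are 18517 bases apart and Mt2 and Mt1 5513 bases apart. The coding sequences of the leading transcripts are shown because they carry the cysteines and because gene counts depend on whether such similar genes can be told apart. They are GENCODE M21 sequences without the stop codon, in lower case with the cysteine codons TGC and TGT in capitals. The Mt1-201 coding sequence spans chr8:94179311-94180190, that of Mt2-201 chr8:94172848-94173424 and that of Mt3-201 chr8:94152800-94154007, each over 3 exons.
Mt1-201: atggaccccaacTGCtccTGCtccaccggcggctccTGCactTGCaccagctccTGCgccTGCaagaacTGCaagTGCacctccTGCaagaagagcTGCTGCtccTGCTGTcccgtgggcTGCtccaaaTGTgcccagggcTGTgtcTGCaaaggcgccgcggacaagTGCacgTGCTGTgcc
Mt2-201: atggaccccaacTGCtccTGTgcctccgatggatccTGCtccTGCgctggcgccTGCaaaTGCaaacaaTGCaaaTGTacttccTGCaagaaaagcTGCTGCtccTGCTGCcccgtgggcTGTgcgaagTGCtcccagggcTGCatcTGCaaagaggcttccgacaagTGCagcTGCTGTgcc
Mt3-201: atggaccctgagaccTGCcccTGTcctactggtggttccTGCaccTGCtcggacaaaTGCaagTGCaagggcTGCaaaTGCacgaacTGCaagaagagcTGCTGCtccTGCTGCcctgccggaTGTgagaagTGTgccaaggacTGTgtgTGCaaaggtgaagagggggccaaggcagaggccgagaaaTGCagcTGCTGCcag
Mt1-201 and Mt2-201 each had 61 codons, 20 of them for cysteine (32.8%), and Mt3-201 had 68 codons with the same 20 cysteines (29.4%). Mt1 and Mt2 were identical at 79.2% of aligned coding positions, Mt1 and Mt3 at 66.8%, and Mt2 and Mt3 at 68.1%. The longest run of identical bases was 27, between Mt1 and Mt3, and 20 for both other pairs. The deposited posterior SD of the gene count was 0 for all 8 genes in both replicates, so no uncertainty from shared reads was recorded at gene level.

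Metallothioneins were the most abundant of the 8 genes. Their level is expressed as TPM, a read count divided by transcript length and scaled to the same total in every library. Mt3 measured 498 TPM in replicate 1 and 537 TPM in replicate 2 (517 ± 27.6). Mt1 measured 249 and 260 TPM (254 ± 7.60), and Mt2 measured 162 and 180 TPM (171 ± 12.7). All 3 were a little higher in replicate 2, and the ranges of the 3 genes did not overlap.

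Among 22028 protein-coding genes, Mt3 ranked 70th by mean TPM, Mt1 ranked 211th and Mt2 ranked 406th. The 3 genes summed to 909 TPM in replicate 1 and 976 TPM in replicate 2. Mt3 held 54.9% ± 0.141 of that sum, Mt1 27.0% ± 0.565 and Mt2 18.1% ± 0.424. In each replicate Mt3 thus stood at 2.00 and 2.07 times the TPM of Mt1, and Mt1 at 1.54 and 1.44 times that of Mt2. By reads alone, without a correction for length, Mt3 took 55.8% of the metallothionein expected counts in replicate 1, with a 95% Wilson interval from 54.7% to 56.9%. The share in replicate 2 was 56.3%, with bounds of 55.3% and 57.3%. These intervals cover counting error only, since reads without molecular identifiers are not independent molecules. Mt4, the fourth gene of the cluster and known from stratified epithelium, had 0.32 and 0 TPM, which rests on 2 reads in replicate 1 and none in replicate 2.

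Slc30a3, on the minus strand at chr5:31086106-31108237, measured 36.9 TPM in replicate 1 and 30.7 TPM in replicate 2 (33.8 ± 4.35). It ranked 3261st of the protein-coding genes and was the second of the 5 transporter members. Replicate 2 was the lower for Slc30a3, while Slc17a7, the vesicular glutamate transporter found on the same vesicles, was at 636 TPM in replicate 1 and 692 TPM in replicate 2. The TPM ratio of Slc30a3 to Slc17a7 was therefore 0.0579 and 0.0444. Slc17a7 is 1 of 5 excitatory neuron markers listed, of which 4 were higher in replicate 2 and 1 was lower. The lower was Camk2a, at 1624 and 1484 TPM. Ap3b2 and Ap3d1, subunits of the AP-3 adaptor that sorts ZnT3 to synaptic vesicles, measured 71.8 ± 1.42 and 59.7 ± 1.92 TPM, both above Slc30a3 in each replicate. Tmem163, a zinc-binding vesicle membrane protein, measured 7.58 ± 0.120 TPM.

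Slc30a9, at chr5:67306955-67358443 on the plus strand, encodes ZnT9, the zinc transporter of mitochondria, and had the highest level of the 5 transporter members. It measured 74.2 TPM in replicate 1 and 71.8 TPM in replicate 2 (73.0 ± 1.69). Slc30a1 (chr1:191906767-191913247, plus strand), the plasma membrane zinc exporter, measured 14.7 and 16.0 TPM (15.4 ± 0.940). Slc30a4 (chr2:122681233-122702663, minus strand), which fills vesicles with zinc and is known from milk, measured 12.1 and 12.6 TPM (12.3 ± 0.346). These last genes lay close together, at a ratio of 1.21 in replicate 1 and 1.27 in replicate 2, yet their ranges did not overlap.

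Slc30a10 (chr1:185454848-185468762, plus strand), best known as a manganese exporter, was the lowest of the 8 at 4.50 and 4.26 TPM (4.38 ± 0.170). The 5 transporter members summed to 142 TPM in replicate 1 and 135 TPM in replicate 2. Of that sum Slc30a9 held 52.6% ± 0.647, Slc30a3 24.3% ± 2.27, Slc30a1 11.1% ± 1.07, Slc30a4 8.90% ± 0.565 and Slc30a10 3.15% ± 0.0104. The share of Slc30a3 was 25.9% in replicate 1 and 22.7% in replicate 2, the widest spread of the 5 shares.

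**Figure D1:**
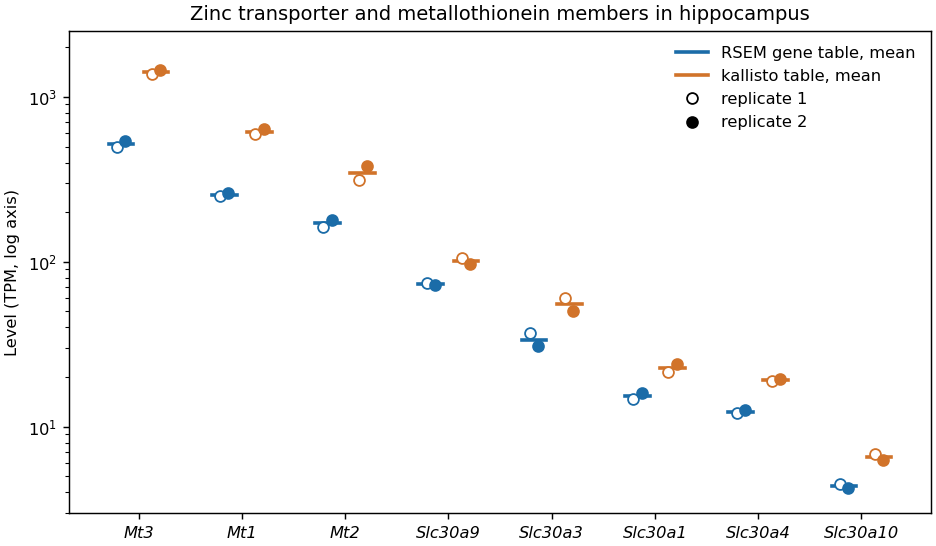
Level of each gene in TPM on a log axis, with replicate 1 as open points, replicate 2 as filled points and bars at the means, from the RSEM gene table (blue) and the kallisto table (orange). The order of the 8 genes is the same in both tables, and the kallisto values are higher for every gene, most for Mt3.

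All 8 genes reached 1 TPM, against 27.4% of all annotated genes and 58.9% of protein-coding genes. All but Slc30a10 reached 10 TPM, which 15.4% of annotated and 36.8% of protein-coding genes did. The median of the 8 genes was 53.4 TPM. In TPM every neighbouring pair in the order Mt3, Mt1, Mt2, Slc30a9, Slc30a3, Slc30a1, Slc30a4, Slc30a10 had replicate ranges that did not overlap. Without division by length the order was different. On counts scaled only to library size (CPM) Slc30a9 stood at 118, above Mt1 at 78.6 and Mt2 at 41.6. On that scale the ranges of Slc30a1 and Slc30a3, and of Slc30a3 and Slc30a4, overlapped.

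The TPM of the metallothioneins differed between the deposited tables, and so did the length each table used for them. Each library was also quantified with kallisto, where Mt3 had a mean of 1414 TPM, Mt1 615 TPM and Mt2 346 TPM. Against the RSEM table that was 2.73-fold, 2.42-fold and 2.02-fold higher, while for the 5 transporters the same ratio ran from 1.39 (Slc30a9) to 1.64 (Slc30a3). The read counts did not differ in that way: the kallisto to RSEM count ratio was 0.951 for Mt3, 0.871 for Mt1 and 0.779 for Mt2. For long transcripts the deposited effective length was 99 bases below the transcript length in RSEM and 349 or 343 bases below it in kallisto. For Mt3-201, of 536 bases, it was 437 bases in RSEM against 196 and 199 bases in kallisto. Comparisons between a metallothionein and a long gene are therefore tied to the table used, and the share of Mt3 among the 3 short genes moved less, from 54.9% to 59.6%.

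The 8 genes had 27 annotated transcripts, 19 of them at a mean of at least 1 TPM. The same transcript led in both replicates and both tables for all 8 genes, and for 7 of them it held at least 50% of the gene's TPM. No share over all genes or transcripts was worked out for these counts, so they only describe the 8 genes. Mt1-201 held 99.0% ± 0.368 of Mt1, Mt3-201 96.8% ± 0.733 of Mt3 and Slc30a4-201 97.7% ± 0.0636 of Slc30a4. Slc30a3-201, of 8 exons, held 96.7% ± 0.802 of Slc30a3 in RSEM and 83.9% ± 10.8 in kallisto. The wide spread in kallisto came with Slc30a3-206, a 9-exon form, at 0.10 TPM in replicate 1 and 8.52 TPM in replicate 2. Slc30a1-201 held 86.8% ± 2.42 of Slc30a1. Slc30a10 has 1 annotated transcript, so its place in the counts of 8 and 7 was fixed in advance.

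**Figure D2:**
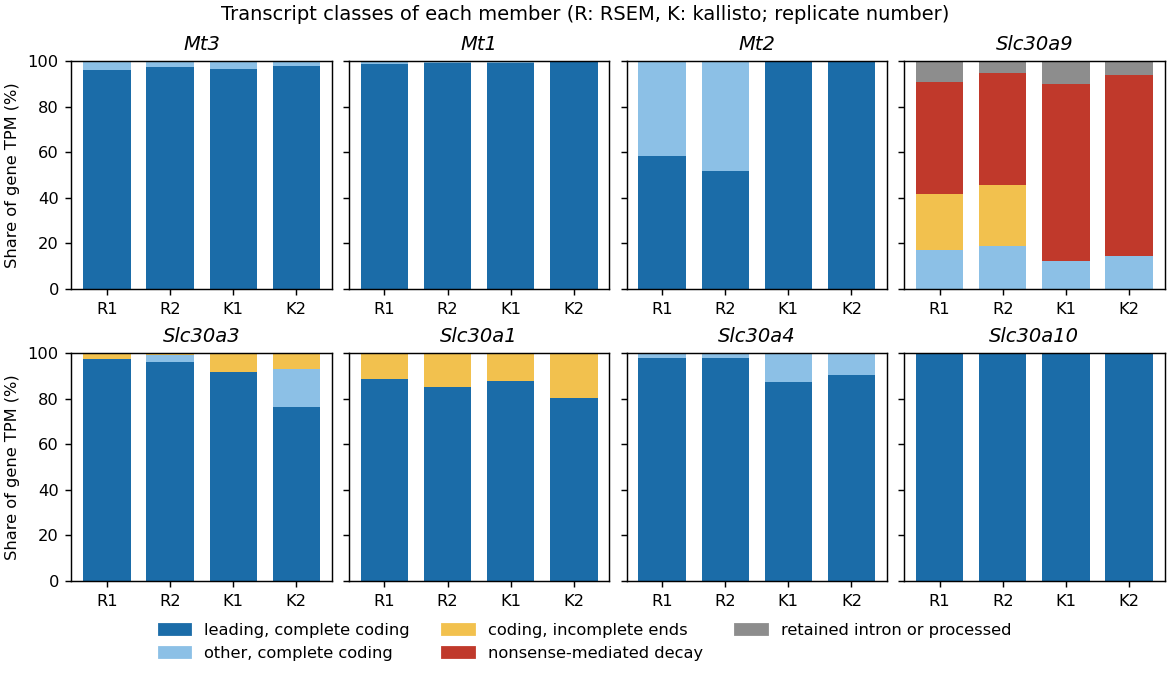
Share of each gene's TPM held by classes of transcript, in percent, with bars for replicates 1 and 2 in RSEM (R1, R2) and kallisto (K1, K2). Mt2 and Slc30a9 are the genes whose make-up differs most between the tables: Mt2-202 is at 0 in kallisto, and transcripts of the nonsense-mediated decay class hold most of Slc30a9 there.

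Mt2 was divided between 2 transcripts in RSEM and not in kallisto. Mt2-201 held 58.3% of the Mt2 TPM in replicate 1 and 51.8% in replicate 2, which is 94.6 and 93.3 TPM. Mt2-202 held the rest, 67.5 and 86.7 TPM. In kallisto all Mt2 reads went to Mt2-201, and Mt2-202 was listed at 0 in both replicates. Thus RSEM assigned the higher Mt2 level of replicate 2 to Mt2-202, with 406 and 613 counts. The deposited posterior SD of those counts was 40.3 and 42.8, so how the reads divide between the transcripts was uncertain. In kallisto the rise lay in Mt2-201, at 313 and 379 TPM.

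Mt2-202 starts from another first exon (chr8:94172860-94172952) and shares exon 2 and nearly all of exon 3 with Mt2-201. Its annotated coding sequence reads those exons in another frame, offset by 1 base from that of Mt2-201. The part that lies within the coding exons of Mt2-201 (chr8:94173127-94173422) is shown because its letters are those of the metallothionein while its codons are not. Cysteine codons in the Mt2-202 frame would be in capitals, and none of the 51 codons is one.
Mt2-202: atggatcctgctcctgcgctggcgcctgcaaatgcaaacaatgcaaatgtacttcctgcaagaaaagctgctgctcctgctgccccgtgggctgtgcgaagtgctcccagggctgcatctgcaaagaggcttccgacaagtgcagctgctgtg
Over its whole annotated coding sequence of 76 codons Mt2-202 has 2 cysteine codons, against 20 in Mt2-201. The figures for Mt2 as a gene in RSEM join both frames.

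Slc30a9 was the most divided gene. Its leading transcript, Slc30a9-207, held 31.8% ± 2.52 of the gene's TPM at 22.3 and 24.1 TPM, and it is annotated as a target of nonsense-mediated decay, the pathway that removes mRNAs with an early stop codon. All transcripts of that class together held 49.1% ± 0.188 of Slc30a9 in RSEM and 78.7% ± 1.31 in kallisto. The complete coding transcripts, Slc30a9-204 and Slc30a9-201, held 17.9% ± 1.43 of the gene's TPM in RSEM. That share was 12.6 TPM in replicate 1 and 13.6 TPM in replicate 2. In kallisto the complete forms had 13.4 ± 0.770 TPM, which was a smaller share of the gene, 13.3% ± 1.47. The TPM of the transporters was higher in kallisto, so like TPM values are not like shares. Slc30a9-208, a 425-base fragment with incomplete ends, was at 18.3 and 19.1 TPM in RSEM and listed at 0 in kallisto. By RSEM expected counts, without division by length, Slc30a9-207 held 42.4% ± 1.79 of the gene and Slc30a9-204 41.4% ± 2.66. Slc30a9-208 held 3.52% of those counts against 25.7% of the TPM. In kallisto Slc30a9-205, a 678-base decay-class transcript with incomplete ends, held 35.3% of the TPM with 206 counts in each replicate. Slc30a9-207 had 1992 and 2501 counts there, against 1473 and 1873 in RSEM. Slc30a9-204 had 1053 and 1408 counts in kallisto, against 1414 and 1855 in RSEM. The TPM shares thus rest partly on short partial transcripts.

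Set by complete coding transcripts alone, the order of the transporters changed. Slc30a3 then stood at 33.1 TPM, above Slc30a9 at 13.1 ± 0.742 TPM. Slc30a1, at 13.3 ± 0.438 TPM, had replicate values of 13.0 and 13.6 TPM, which overlapped those of Slc30a9. Slc30a4, at 12.1 and 12.59 TPM, also overlapped Slc30a9, whose values were 12.57 and 13.62 TPM. The share of Slc30a3 among the 5 rose to 43.4%. Of the 28 pairs among the 8 genes, 26 kept the order of their means, all but Slc30a9 with Slc30a3 and with Slc30a1. This alternative was chosen after the transcript shares had been seen.

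Slc30a9-207 differs from Slc30a9-204 at its start, in its middle and at its end. Its first exon runs on past the end of the first exon of Slc30a9-204 (67307197) to 67307593. It lacks the exons at chr5:67324674-67324733, chr5:67326853-67326952 and chr5:67333054-67333121, and its last exon ends at 67355786 in place of 67358443. Its exon ending at 67334668 starts at 67334506 in place of 67334566. The annotated reading frame of Slc30a9-207 with its stop codon (chr5:67307095-67307205, plus strand, GENCODE M21) is shown because it stops inside the extended first exon. The 8 capitals mark the bases past the end of the first exon of Slc30a9-204, and they end in the stop codon.
Slc30a9-207: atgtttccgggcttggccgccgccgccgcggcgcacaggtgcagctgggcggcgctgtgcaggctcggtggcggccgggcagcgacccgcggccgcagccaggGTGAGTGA
Exon 3 of Slc30a9-204 (chr5:67324674-67324733, 60 bases) is the coding difference from Slc30a9-201, which lacks it.
Slc30a9-204 exon 3: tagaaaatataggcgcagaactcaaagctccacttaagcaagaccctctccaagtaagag
Slc30a9-204 was at 12.1 and 13.5 TPM and Slc30a9-201 at 0.47 and 0.11 TPM, so nearly all complete Slc30a9 transcript was assigned to the form with this exon.

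**Figure D3:**
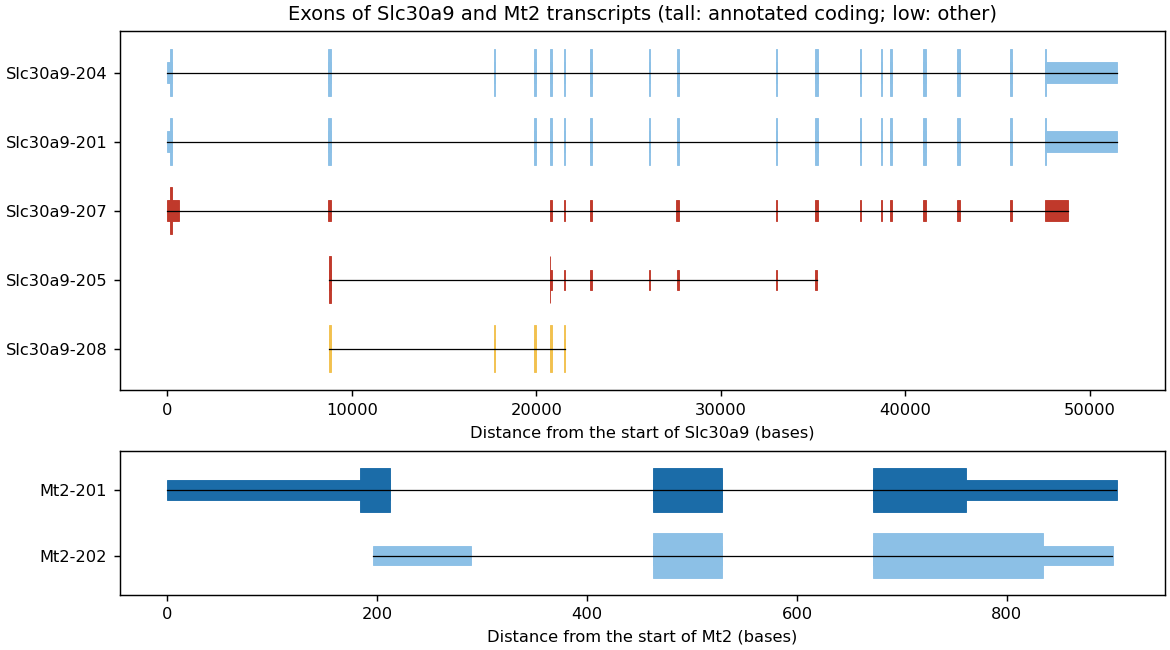
Exons of the Slc30a9 and Mt2 transcripts by distance from the gene's start in bases, with tall boxes for annotated coding sequence and low boxes for the rest, coloured by the transcript classes above. Slc30a9-207 has its short coding stretch in the first exon only, and Mt2-202 has an annotated coding sequence in exons 2 and 3 that runs past the end of that of Mt2-201.

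The promoters were searched for the core of the metal response element, the site bound by MTF1, because Mt1, Mt2 and Slc30a1 are known MTF1 targets. The letters searched were TGCACNC and TGCGCNC on both strands, and matches on opposite strands that overlap were each counted. In the RefSeq promoter windows (GRCm38.p6, 250 bases before to 50 after the start) Mt2 had 4 matches, and 0.517% of 32851 windows held as many. Mt1, Slc30a4 and Slc30a10 had 3 each, which 1.97% of windows reached. Slc30a1 had 2, which 7.11% of windows reached, and Mt3 had 1. Slc30a3 has 2 starts, with 1 match and none, and Slc30a9 had none. At least 1 match was present in 25.7% of all windows. These shares are over all windows and take no account of base composition. A match is a run of letters and not a measured binding site.

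The windows of Mt2 (chr8:94172368-94172597) and its neighbour Mt3 (chr8:94152357-94152586) are printed from 250 to 21 bases before the start, on the plus strand, because the genes are 18517 bases apart and differ in matches. Capitals mark the matches.
Mt2 upstream: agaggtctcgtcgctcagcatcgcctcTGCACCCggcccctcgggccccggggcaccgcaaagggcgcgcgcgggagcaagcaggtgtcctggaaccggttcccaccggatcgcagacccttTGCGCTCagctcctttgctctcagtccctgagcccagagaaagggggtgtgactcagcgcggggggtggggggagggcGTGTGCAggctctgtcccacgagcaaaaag
Mt3 upstream: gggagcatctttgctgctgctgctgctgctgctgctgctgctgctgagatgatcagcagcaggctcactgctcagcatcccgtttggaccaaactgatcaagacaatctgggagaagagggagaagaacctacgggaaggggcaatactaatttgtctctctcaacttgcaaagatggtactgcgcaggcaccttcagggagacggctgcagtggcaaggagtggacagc
Within these 230 bases Mt2 had 3 matches, which 1.06% of the windows reached, and Mt3 had none. For Mt1 all 3 matches lay at least partly outside the same stretch. Mtf1 itself was at 12.3 and 11.0 TPM.

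The replicates were also compared gene by gene on counts scaled by edgeR's trimmed mean of M-values (TMM). The log2 ratio of replicate 2 over replicate 1 was 0.15 for Mt3, 0.10 for Mt1 and 0.16 for Mt2. It was -0.20 for Slc30a3 and -0.04 for Slc30a10, and 0.07, 0.12 and 0.10 for Slc30a9, Slc30a1 and Slc30a4. A difference of more than 0.32 on the log2 scale in either direction was taken as the limit, and 0 of the 8 passed it. Of the 12719 genes with a mean count of at least 100, 8.00% passed it, 2.42% as higher and 5.58% as lower in replicate 2, and 0.778% were over 2-fold apart. Slc30a3 stood farthest out, with 11.0% of the genes at a lower ratio. With scaling to the spike-ins the median of all genes moved by -0.21, all 8 ratios were negative, and Slc30a3 at -0.41 passed the limit. In the kallisto table Mt2 passed it at 0.40. In deposited TPM the Slc30a9 level was the lower in replicate 2, opposite to its TMM ratio.

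**Figure D4:**
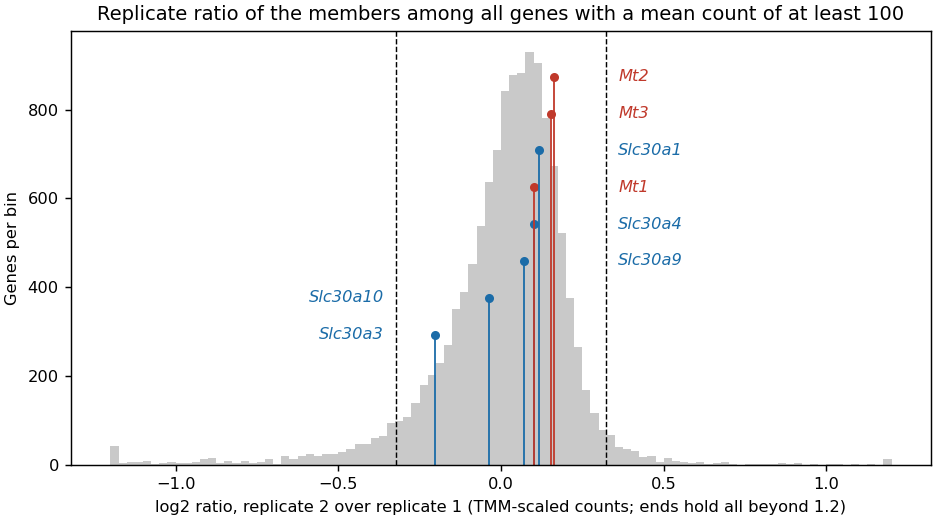
Histogram of the log2 ratio of replicate 2 over replicate 1 for the 12719 genes with a mean count of at least 100, in genes per bin, with a pin for each of the 8 genes (heights only separate the names) and dashed lines at 0.32 to either side of 0. All 8 pins lie between the lines, with Slc30a3 the leftmost at -0.20.

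Markers of hippocampal cell types were present in both replicates. Excitatory neuron markers summed to 3094 TPM in replicate 1 and 3057 TPM in replicate 2, those of dentate granule cells to 264 and 256 TPM, and those of CA3 pyramidal cells to 95.8 and 92.4 TPM. Camk2a was the highest excitatory marker, at a mean of 1554 TPM. The TMM-scaled log2 ratios of the 5 excitatory markers ran from -0.06 for Camk2a to 0.17 for Slc17a7. Astrocyte markers summed to 1770 and 1763 TPM, with Slc1a2 the highest at 914 TPM. Those of myelinating oligodendrocytes summed to 2078 and 2178 TPM, inhibitory neurons to 416 and 463 TPM, microglia to 102 and 104 TPM and endothelial cells to 88.8 and 76.2 TPM. Of the 5 granule cell markers 3 had a higher TMM-scaled count in replicate 2 and 2 a lower one. Their log2 ratios ran from -0.25 to 0.10 with a median of 0.10, and the -0.20 of Slc30a3 lies within this range. The 5 blood markers, mostly globins, were each higher in replicate 2 by more than 0.32 on the log2 scale and summed to 756 and 1119 TPM. Of 5 choroid plexus markers 2 reached 1 TPM, and the 5 summed to 53.4 and 66.5 TPM. The difference between these sums lay in Ttr alone, the highest of the list, at 47.9 and 61.0 TPM. Of 5 fibroblast and meninges markers 4 reached 1 TPM, with sums of 58.1 and 71.4 TPM for the list. The 4 compared by ratio were split, 2 higher and 2 lower in replicate 2, with a median log2 ratio of 0.03. Their ratios ran from -0.21 to the 0.87 of Dcn, which was at 11.2 and 20.0 TPM. The part of these lists in the differences of Slc30a3 and the metallothioneins was not tested, and in bulk tissue fewer cells and less RNA per cell cannot be told apart. The libraries held 30635891 and 35713471 expected counts on genes. Spike-ins took 0.367% and 0.414% of gene and spike-in counts together.

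Of 25 other genes of zinc handling, 19 reached 1 TPM and 13 reached 10 TPM, with a median of 11.6 TPM. Among all protein-coding genes 58.9% reached 1 TPM and 36.8% reached 10 TPM. Of the 14 Slc39a genes, which code for ZIP importers, 12 reached 1 TPM. Together the 14 summed to 243 and 238 TPM, and all 10 Slc30a genes to 177 and 167 TPM. The lists differ in length, so these sums do not show a higher level per gene. Slc39a10 and Slc39a7 were the highest of the Slc39a genes, at 44.4 ± 1.75 and 42.7 ± 2.81 TPM. Slc39a4 and Slc39a5, known from gut and pancreas, stayed under 1 TPM. Of the 25 genes, 19 had a mean count of at least 100 and so a replicate ratio to compare, and 1 of them passed the 0.32 limit, against 8.00% of all genes compared. It was Slc39a2, at 2.82 and 1.66 TPM with a log2 ratio of -0.71.

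The other 5 Slc30a genes were present or nearly absent. Those of the secretory pathway were present: Slc30a5 measured 16.1 ± 0.0636 TPM, Slc30a7 9.62 ± 1.40 TPM and Slc30a6 7.27 ± 0.445 TPM, a range that includes Slc30a1 and Slc30a4. Slc30a2, known from mammary gland, and Slc30a8, the transporter of insulin granules, had means of 0.03 and 0.01 TPM. Slc30a3 made up 19.6% ± 1.75 of the RSEM TPM of all 10 Slc30a genes, 22.0% ± 1.82 in kallisto and 13.4% ± 1.52 on counts. Gpr39, a zinc-sensing receptor, had a mean of 0.125 TPM.

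**Figure D5:**
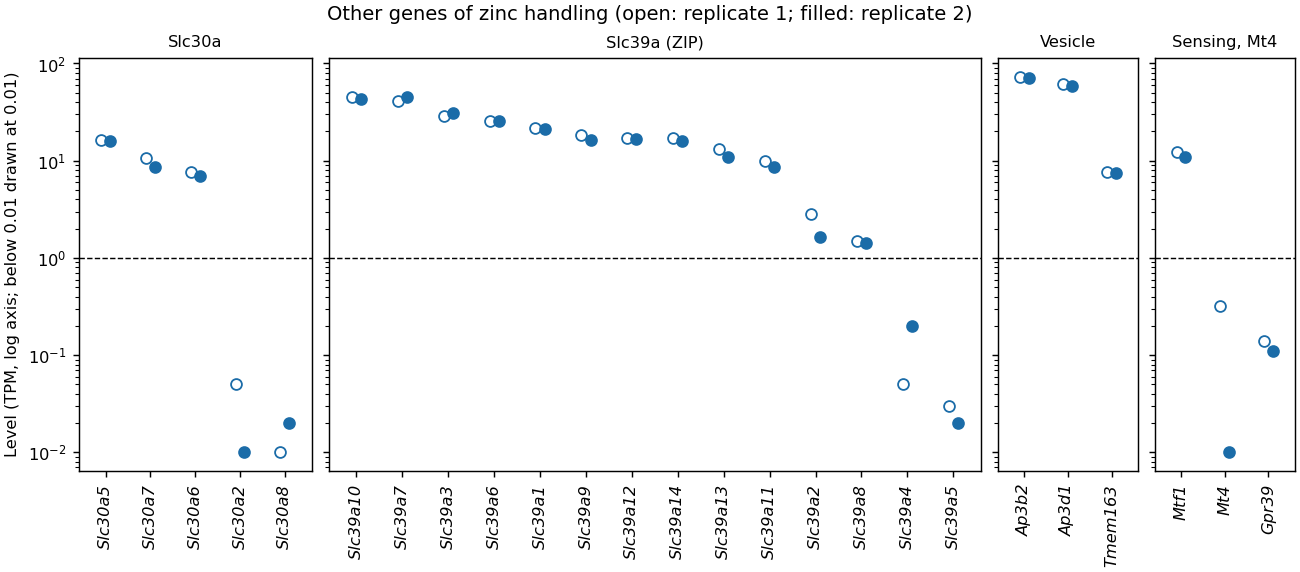
Level of 25 other zinc genes in TPM on a log axis, open points for replicate 1 and filled points for replicate 2, with a dashed line at 1 TPM; values under 0.01 are drawn at 0.01. Slc39a10 leads the ZIP genes, and Slc30a2, Slc30a8, Slc39a4, Slc39a5, Mt4 and Gpr39 lie under the line.

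Of the 8 genes, 5 overlap a gene on the opposite strand, and whether the counting used strand is not given in the sources used here, so reads of such pairs cannot be told apart. The partners were low. Gm2061, which overlaps Slc30a10, had 71 and 84 reads against 538 and 598 for Slc30a10. 1700034H15Rik, beside Slc30a1, was at 1.17 ± 0.410 TPM. The partners of Slc30a3 (Gm9924 and Dnajc5g), Slc30a4 (4930417H01Rik) and Mt2 (Gm45774) were at 0.240 TPM or less.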

How the data were processed

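Hippocampal total RNA of 2 replicates was analysed from 3 kinds of deposited table. The gene and transcript tables hold RSEM expected counts, TPM, posterior mean TPM and isoform percent per the file headers, and the second transcript table holds kallisto estimated counts and TPM, summed here by gene. The deposited posterior SD and effective length are other per-row values of the authors' quantifiers. The assembly is mm10 per the labels; gene models of GENCODE M21 matched the deposited identifiers. The sources used here name no aligner and no tool version.

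Counts of all annotated genes were rounded for TMM scaling in edgeR 4.0.16 with a prior count of 0.5. Only genes with a mean count of at least 100 had their ratios compared. Ratios were recomputed with DESeq2 1.42.0 size factors, spike-ins, deposited TPM plus 0.5 and kallisto, and levels with TPM rescaled to nuclear protein-coding genes. Rows naming no gene held 6 and 2 counts and stayed out, as did the spike-ins. A count of 0 allows up to 3 counts, or 0.0979 and 0.0840 CPM. No test was run, since the series has 1 group. The text names all 8 genes, may name any of 25 zinc genes and the highest and lowest gene of each marker list; Slc17a7 and Dcn were added with their values already seen. The members and lists were chosen with earlier results of these data known. The ratio script was checked on simulated data.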

Additional observations from a re-analysis of the deposited data

How the results depend on the processing

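No paired analysis was possible because the series has 1 group, so the replicate numbers pair nothing. All 8 genes stayed over 1 TPM, and their leading transcripts stayed the same, under every alternative run for those results. Rescaling TPM to nuclear protein-coding genes multiplies all levels of a library by the same factor. It therefore raises every level and cannot change the order within a library, so the 28 pairs kept in order are no check. Mt3 went from 517 to 1166 TPM, Slc30a3 from 33.8 to 76.3 and Slc30a10 from 4.38 to 9.88. The Mt3 share of the metallothioneins was 59.6% in kallisto and 56.0% on counts. The Slc30a3 share of the 5 transporters was 27.0% in kallisto, 16.5% on counts and 43.4% with complete coding transcripts, the last chosen after seeing the data. Spike-in scaling put 1 member (Slc30a3, lower) past a log2 ratio of 0.32 and kallisto put 1 (Mt2, higher, log2 ratio 0.40). Of all genes 1018 passed that limit (308 higher and 710 lower in replicate 2), against 2478 with spike-ins (69 and 2409), 4273 with a minimum count of 10 and 12119 with none; deposited TPM gave 285 higher and 1123 lower. Over 2-fold, 99 genes became 54 with deposited TPM, 154 with spike-ins, 186 with kallisto, 936 at a minimum of 10 and 6540 with none. The cause was not tested. Leaving out a replicate gave Mt3 shares from 54.8% to 55.0% and Slc30a3 shares from 22.7% to 25.9%. With 2 replicates, differences of the size of the SDs given are not resolved.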
